A study of Mus musculus with 2 samples.

Results

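The 35 genes described here encode aminoacyl-tRNA synthetases, the enzymes that join each amino acid to its transfer RNA (tRNA). They were taken from a list of symbols, and those ending in 2 (16 genes) were set as mitochondrial against the other 19 as cytoplasmic. All 35 were found among the 21911 protein-coding genes of the GENCODE M21 annotation of the mouse genome build GRCm38 (mm10). The data are peaks of histone H3 trimethylated at lysine 36 (H3K36me3) from chromatin immunoprecipitation and sequencing (ChIP-seq) of E14TG2a.4, a male mouse embryonic stem (ES) cell line of strain 129/Ola. There is 1 group of 2 biological replicates, labelled as embryonic with an age of 3.5 days, and no genotype change or treatment is given. Both replicates are of the same cell line and donor, so their spread does not cover differences between lines. With 1 group of 2 samples no test between groups can be made, and values are given for replicate 1 and replicate 2, with mean ± SD (n = 2) where they are combined.

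Each synthetase recognises 1 amino acid and the tRNAs that carry it, and the charged tRNAs then feed the ribosome. Mammals use separate nuclear genes for most cytoplasmic and mitochondrial enzymes, and the mitochondrial proteins are imported after synthesis. Kars and Gars (lysine and glycine) are known to supply both compartments from the same gene, and Eprs charges both glutamate and proline. Several cytoplasmic enzymes sit in a multi-synthetase complex held by scaffold proteins. H3K36me3 is deposited by SETD2, which travels with elongating RNA polymerase II, so the mark lies over transcribed gene bodies and is usually low at the start of a gene.

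Replicate 1 had 107779 peaks over 139 Mb and replicate 2 had 98185 peaks over 127.0 Mb. The files hold peaks and no read counts, so the depth behind a value is unknown and no interval from counting can be given. The covered share of a gene is the percentage of its annotated span lying in peaks, and a gene was called marked when this was at least 10% in each replicate. The label of the cells was checked on marker genes. All 10 ES cell markers were marked, while 0 of 8 fibroblast, 0 of 5 primitive endoderm and 0 of 4 trophoblast markers were. Of these last 17 genes only Eomes had any covered base, 0% in replicate 1 and 14.1% in replicate 2.

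H3K36me3 covered nearly the whole family. Of the 35 synthetase genes, 32 were marked, where the background was 37.2% of all coding genes. All 19 cytoplasmic genes were marked and 13 of 16 mitochondrial genes were. At a threshold of 50% of the body in each replicate, 28 members passed, against a background of 19.3%, and these were all 19 cytoplasmic and 9 mitochondrial genes. The 3 unmarked members were Fars2, Nars2 and Wars2, the mitochondrial enzymes for phenylalanine, asparagine and tryptophan.

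The cytoplasmic genes were covered over more of their length than the mitochondrial genes. Their median covered share was 85.3% in replicate 1 and 85.2% in replicate 2. The mitochondrial median was 64.6% and 63.7%. The difference of the medians was 20.7 points in replicate 1 and 21.5 points in replicate 2, or 21.1 ± 0.555 (SD, n = 2), so it was far larger than the spread between the replicates. Among the marked members alone it was 18.4 ± 0.795 points. Marked coding genes as a whole had a median of 57.1% and 52.9%. Among them the cytoplasmic median stood at percentile 88.5 and 90.3, and the mitochondrial median at percentile 59.8 and 62.8.

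The 2 sets overlapped in part. Cytoplasmic shares ran from 61.2 to 96.6% in replicate 1 and from 51.5 to 95.4% in replicate 2. Mitochondrial shares ran from 0.0987 to 78.7% and from 0.132 to 81.3%. Above the highest mitochondrial gene lay 16 of 19 cytoplasmic genes in replicate 1 and 13 in replicate 2. Below the lowest cytoplasmic gene lay 7 of 16 mitochondrial genes in each. On the annotated spans, 0 of 16 mitochondrial genes exceeded the cytoplasmic median. Over the longest coding transcript in place of the annotated span, 1 did in each replicate, and this was Tars2.

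**Figure D1:**
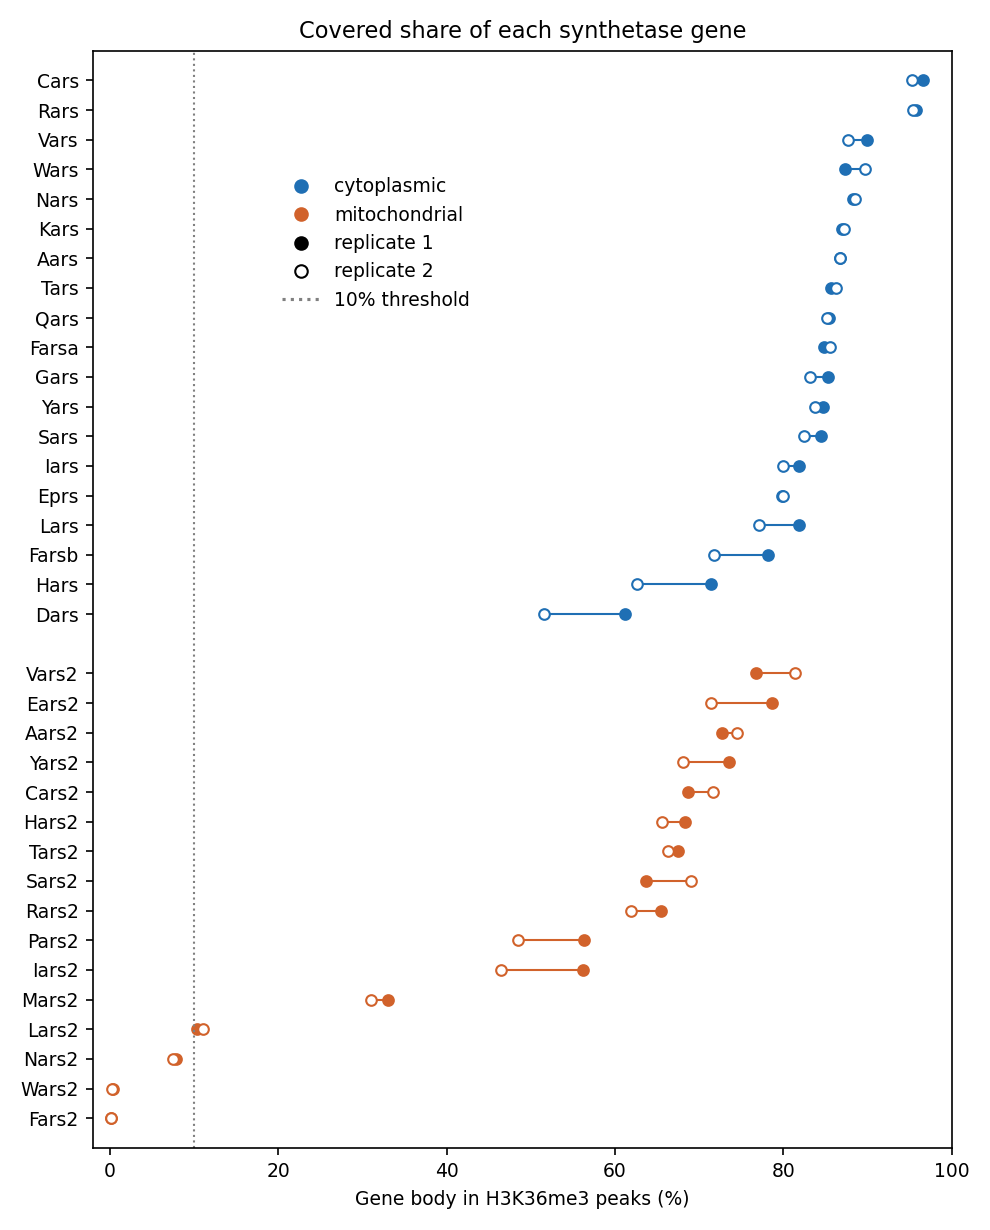
Share of each synthetase gene body lying in H3K36me3 peaks (x axis, %), with cytoplasmic genes in blue, mitochondrial genes in orange, filled points for replicate 1, open points for replicate 2 and a dotted line at the 10% threshold. All 19 cytoplasmic genes sit above 50%, and 4 mitochondrial genes (Lars2, Nars2, Wars2 and Fars2) sit at or below 11.1%.

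The peaks over the cytoplasmic genes were also higher in the median. For each gene the deposited fold enrichment of its peaks was averaged over its covered bases alone. The median of this value was 9.31 in replicate 1 and 12.3 in replicate 2 for the 19 cytoplasmic genes, and 6.37 and 7.98 for the 13 marked mitochondrial genes. All marked coding genes had medians of 6.32 and 7.87, close to the mitochondrial values. Single genes of the 2 sets overlapped. Averaged over the whole body, the fold of Tars2 was 8.58 and 11.0, above the cytoplasmic medians of 7.94 and 10.5. For Dars it was 3.36 and 3.23, below the medians of 3.72 and 4.71 for the 16 mitochondrial genes. The fold is the authors' value per peak and is compared here only within a replicate.

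Among the cytoplasmic genes, the most fully covered were Cars and Rars. Cars, which charges cysteine (chr7:143557230-143600090, minus strand), had 96.6% and 95.3%, and Rars, for arginine, had 95.7% and 95.4%. In both genes coverage began close to the start, at 1133 and 1392 bp in Cars and at 927 and 877 bp in Rars, and ran on to the 3′ end. Next came a group of genes within a few points of each other. Vars (valine) had 90.0% and 87.7%. Nars (asparagine) had 88.3% and 88.5%, and Wars (tryptophan) had 87.3% and 89.7%. Kars, the lysine enzyme of both compartments, had 86.9% and 87.2%. Within this group the order changed between the replicates.

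Another 9 cytoplasmic genes lay between 79.9 and 86.7% in both replicates. They were Aars (alanine), Tars (threonine), Qars (glutamine), Farsa (the alpha subunit for phenylalanine), Gars (glycine), Yars (tyrosine), Sars (serine), Iars (isoleucine) and Eprs. Lars, the leucine enzyme, had 81.9% in replicate 1 and 77.1% in replicate 2. Farsb, the beta subunit that pairs with Farsa, had 78.2% and 71.8%. The lowest cytoplasmic genes were Hars (histidine) with 71.4% and 62.6%, and Dars (aspartate) with 61.2% and 51.5%. Dars was also broken up, with 37 peaks in replicate 1 and 35 in replicate 2 over 53.7 kb, while Rars had 3 and 4 peaks over 26.1 kb. Per kb of gene, Dars had 0.690 and 0.652 peaks, the most of the 19 cytoplasmic genes, ahead of Farsb with 0.508 and 0.550.

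Long unbroken peaks were common over cytoplasmic genes. The longest within a member was 22.5 kb over Cars in replicate 1, where replicate 2 had several shorter peaks and a longest of 11.9 kb. Over Iars the longest was 21.5 kb and 15.3 kb, and over Rars 14.9 kb in both. Aars had 12.1 kb in replicate 1 and 20.8 kb in replicate 2. In Cars, Iars and Aars the longest peak thus differed between the replicates, and in Rars it did not.

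The listed genes of the multi-synthetase complex did not stand above the other cytoplasmic genes. The list holds 7 complex enzymes (Eprs, Iars, Lars, Qars, Rars, Kars and Dars), and their median was 81.9% and 80.0%. The complex also holds Mars, which is not in the list and had 91.4% and 91.6%. The 12 cytoplasmic members outside the complex had a median of 85.5% and 85.9%. The complex genes were also longer, with a median of 52.2 kb against 22.4 kb, and the part of length in this difference was not tested.

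Among the mitochondrial genes, the best covered were Vars2 and Ears2. Vars2 (valine) had 76.8% and 81.3%, and Ears2 (glutamate) had 78.7% and 71.4%, so each led in 1 replicate. Aars2 (alanine) had 72.7% and 74.5%. Cars2, Hars2, Rars2, Sars2, Tars2 and Yars2, for cysteine, histidine, arginine, serine, threonine and tyrosine, lay between 61.9 and 73.5% in both replicates. These 9 genes make up the mitochondrial members above 50% in each replicate, and on the annotated spans all of them lay below the cytoplasmic median.

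Pars2 and Iars2, for proline and isoleucine, were covered over about as many bases as they were not. Pars2, the shortest member at 4.21 kb, had 56.3% in replicate 1 and 48.4% in replicate 2, in 1 peak that covered the 3′ end. Iars2 had 56.2% and 46.4%. Mars2, the methionine enzyme, had 33.0% and 31.0%. It has a single exon block of 11.3 kb, and its peaks lay over the 5′ side. With each gene divided into 3 equal parts, 53.1% and 58.3% of the 5′ part of Mars2 were covered, and 0% of the 3′ part in either replicate.

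The 4 lowest members were also the 4 longest. Lars2, for leucine (chr9:123366927-123462666, 95.7 kb), lay just inside the threshold with 10.3% and 11.1%. Nars2 (chr7:96951505-97064758, 113 kb) lay just outside it with 7.87% and 7.46%. In both genes the 5′ part was the most covered. In Lars2 the 5′ part had 24.7% and 20.6%, and the middle part 0% and 3.22%. With Nars2 divided into 10 equal bins, the first bin had 34.8% and 44.3%, and no other bin exceeded 20.4% in either replicate. These 2 calls moved with the peak set: in the unthresholded sets Lars2 had 21.7% and Nars2 13.9% (means), while among peaks with a −log10 q of at least 5 Lars2 had 8.95% and was no longer marked.

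Wars2 and Fars2 were almost free of peaks. Wars2 (chr3:99141068-99239186, 98.1 kb) had 0.319% and 0.262%, from 1 peak in each replicate, and the 2 peaks did not overlap. In replicate 1 it lay in an intron 59.1 kb from the start, and in replicate 2 on the fourth exon block 64.1 kb from the start. Fars2 (chr13:36117412-36726280, 609 kb, the longest member) had 0.0987% and 0.132%, from 2 peaks in each replicate. All 4 Fars2 peaks touched an exon. Exons made up 94.0% of the Fars2 peak bases in replicate 1 and 76.7% in replicate 2, while they make up 0.944% of the gene. Both replicates had a peak on the same exon block, the fourth, at chr13:36204509-36205141.

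The sequences under 1 exon peak of each gene are shown because these genes had no broad domain. Every Fars2 peak touched an exon, and so did the Wars2 peak of replicate 2, while that of replicate 1 did not. Both sequences are from GRCm38, plus strand, which is the gene strand. Capitals mark bases that code for protein in a coding transcript of the annotation. The Fars2 stretch is chr13:36204473-36204772, the first 300 bases of a replicate 1 peak, and holds 243 coding bases. The Wars2 stretch is chr3:99205212-99205370, from the edge of the replicate 2 peak, and holds 86 coding bases.
Fars2: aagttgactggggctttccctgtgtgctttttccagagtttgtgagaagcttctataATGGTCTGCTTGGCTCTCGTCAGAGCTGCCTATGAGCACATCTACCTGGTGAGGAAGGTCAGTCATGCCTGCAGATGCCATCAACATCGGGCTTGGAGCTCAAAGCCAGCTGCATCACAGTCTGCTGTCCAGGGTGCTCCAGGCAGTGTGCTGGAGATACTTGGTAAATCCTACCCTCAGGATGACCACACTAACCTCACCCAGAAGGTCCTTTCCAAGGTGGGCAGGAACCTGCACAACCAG
Wars2: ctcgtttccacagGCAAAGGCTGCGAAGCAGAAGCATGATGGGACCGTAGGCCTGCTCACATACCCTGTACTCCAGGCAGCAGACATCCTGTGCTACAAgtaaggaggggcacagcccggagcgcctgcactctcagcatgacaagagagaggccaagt
In Fars2 the peak began 57 bases before the coding sequence opens with its ATG. In Wars2 it began 13 bases before the coding exon, so each of these peaks started in the end of the intron before the exon.

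Set amino acid by amino acid, the cytoplasmic gene was the more covered in nearly every pair. Of the 35 genes, all but Dars, Gars, Kars, Qars and Mars2 fall under 15 amino acids with a listed enzyme for each compartment, Farsa and Farsb being averaged and Eprs used for both glutamate and proline. On the annotated spans, the cytoplasmic gene was higher in both replicates for 14 of them, and the mitochondrial gene was higher in both for 0. The median difference was 23.6 points in each replicate. Threonine turned over the longest coding transcript, where Tars2 had 91.7% and 90.1% and Tars 85.6% and 86.2%. The widest differences were for tryptophan (88.2 ± 1.75 points, Wars against Wars2), asparagine (80.7 ± 0.467, Nars against Nars2), phenylalanine (80.0 ± 2.01) and leucine (68.8 ± 3.98), which are the pairs that hold the 4 long mitochondrial genes.

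The other 11 pairs differed by 31.9 points or less in the mean of the replicates. Arginine, isoleucine, proline and cysteine lay between 25.7 and 31.9 points (means). Valine had 13.2 points in replicate 1 and 6.36 in replicate 2, and glutamate 1.20 and 8.54. For histidine the sign turned. Hars minus Hars2 was 3.14 points in replicate 1 and -2.99 points in replicate 2, so this pair was not separated beyond the spread of the replicates. The glutamate values rest on Eprs with 79.9% and 80.0%, and on Ears2 with 78.7% and 71.4%.

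**Figure D2:**
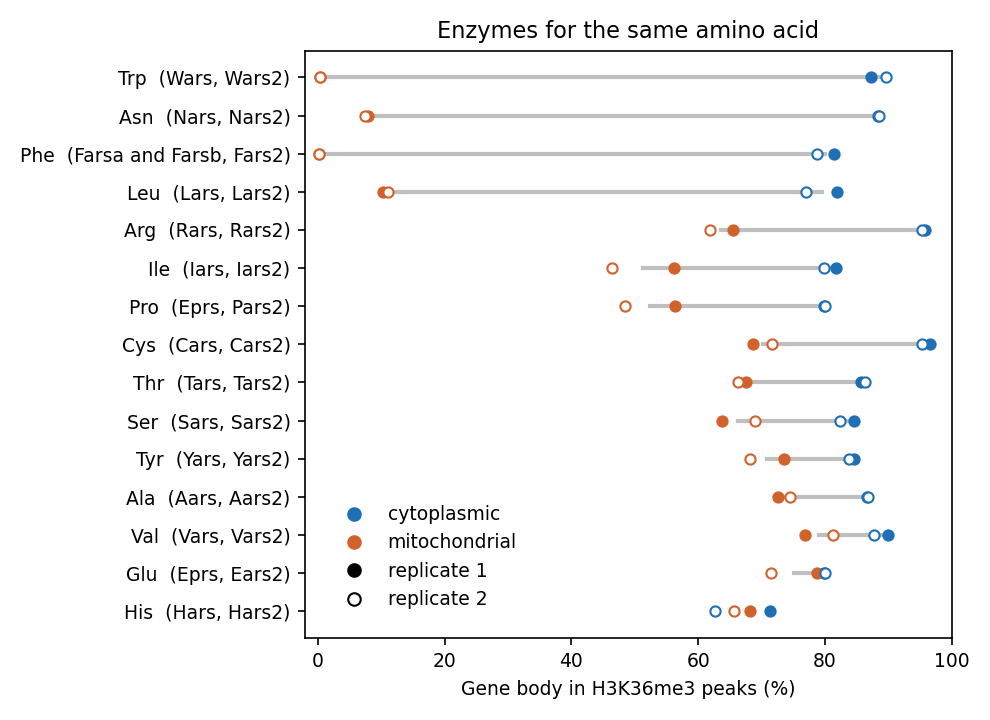
Share of the gene body in H3K36me3 peaks (x axis, %) for the cytoplasmic (blue) and mitochondrial (orange) enzyme of 15 amino acids, with filled points for replicate 1, open points for replicate 2 and a grey bar between the means. Shares are over the annotated spans. The cytoplasmic points lie to the right in both replicates for 14 amino acids, and for histidine the order differs between replicates.

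Gene length went with the lowest values. The 4 members of at least 90 kb were all mitochondrial and 1 of them was marked. Of the 2807 coding genes of that length, 20.9% were marked. No cytoplasmic member is that long, the longest being Farsb at 70.9 kb, so among the longest genes length and compartment cannot be told apart. The median length of the sets was similar, 26.1 kb for the cytoplasmic and 25.1 kb for the mitochondrial genes.

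The difference was present in each length class that held both kinds. From 10 to 20 kb, 6 cytoplasmic genes had a median of 86.3% and 86.7%, and 4 mitochondrial genes 68.2% and 71.7%. From 20 to 40 kb the medians were 86.7% and 86.7% for 5 cytoplasmic genes and 68.7% and 71.4% for 3 mitochondrial genes. From 40 to 90 kb they were 81.8% and 79.9% for 7 genes and 60.8% and 54.2% for 2 genes. Below 10 kb Qars, the shortest cytoplasmic gene at 8.24 kb, had 85.5% and 85.2%, against a median of 68.2% and 65.6% for Pars2, Yars2 and Hars2. Among the members between 8.24 and 70.9 kb, which are all 19 cytoplasmic and 10 mitochondrial genes, the medians differed by 17.5 ± 0.118 points.

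**Figure D3:**
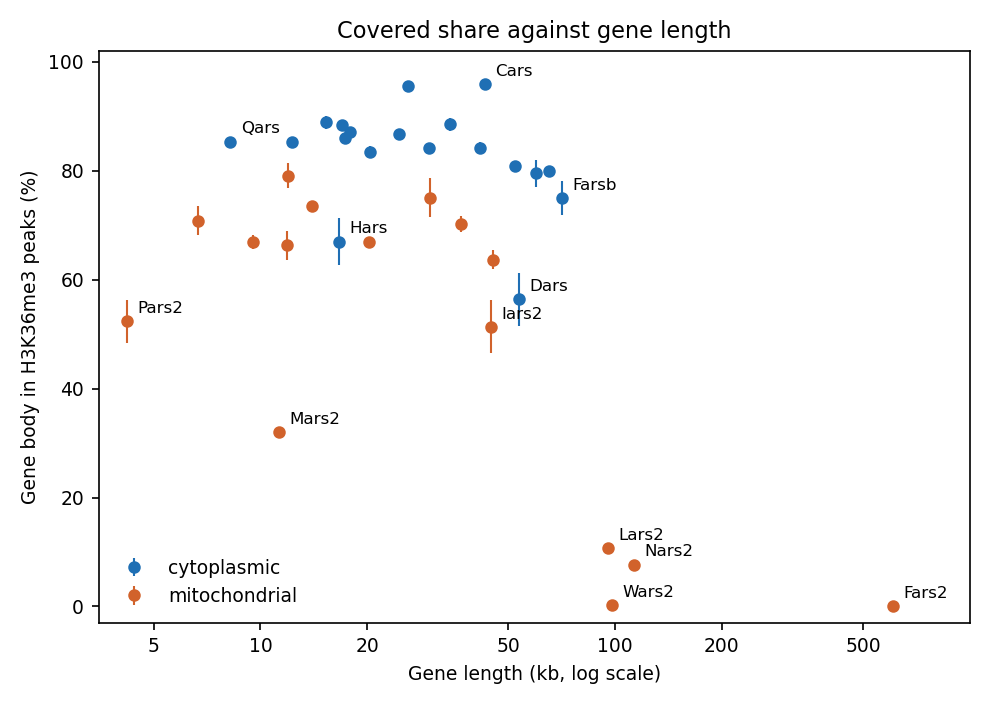
Mean covered share of each synthetase gene (y axis, %) against gene length (x axis, kb, log scale), with bars reaching from the lower to the higher replicate. The 4 genes beyond 90 kb are all mitochondrial and lie at the bottom, and below that length most blue (cytoplasmic) points lie above the orange (mitochondrial) ones.

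Along the gene, coverage was low at the 5′ end and already high from the second of the 10 equal bins in the cytoplasmic genes. In the 19 cytoplasmic genes the first bin was covered to 28.6% and 25.3% on average, and the second to 85.0% and 81.3%. Per bin, the 13 marked mitochondrial genes rose more slowly, from 16.8% and 16.0% in the first to 47.1% and 45.8% in the second. The last bin had 79.0% and 78.6%. The bins scale with gene length, and these 13 genes were shorter in the median than the cytoplasmic genes. Their coverage began at a median of 10.8% and 11.4% of the body, against 6.96% and 7.35% in the cytoplasmic genes. Hars2, Pars2, Tars2 and Yars2 had 0% in the first and second bins in both replicates. The part of length in the slower rise was not tested. With 3 equal parts, the cytoplasmic means (over both replicates) were 65.9, 91.8 and 91.5% from 5′ to 3′, and the mitochondrial means 42.6, 62.5 and 74.7%. All marked coding genes of at least 3 kb had 32.7, 59.4 and 68.8%. The cytoplasmic surplus over the mitochondrial genes was thus present in all 3 parts.

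The 3′ part was more covered than the 5′ part in both replicates in 28 of the 32 marked members, close to the background of 85.0%. The exceptions were Farsb, Iars2, Lars2 and Mars2. Farsb had 91.9% and 84.6% in its middle part and 61.0% and 50.2% in its 3′ part. Of its 10 bins, the eighth had 54.0% and 27.4% and the ninth 39.9% and 31.7%, and the last was back at 76.2% and 80.5%. Iars2 had a gap in its middle part, covered to 29.7% and 9.93%, between 67.6% and 65.9% on the 5′ side and 71.3% and 63.5% on the 3′ side. In that middle part 48.3% of the bases are repeats by the genome's soft masking, against 25.2% and 20.1% in the outer parts, and the role of repeats in the gap was not tested.

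**Figure D4:**
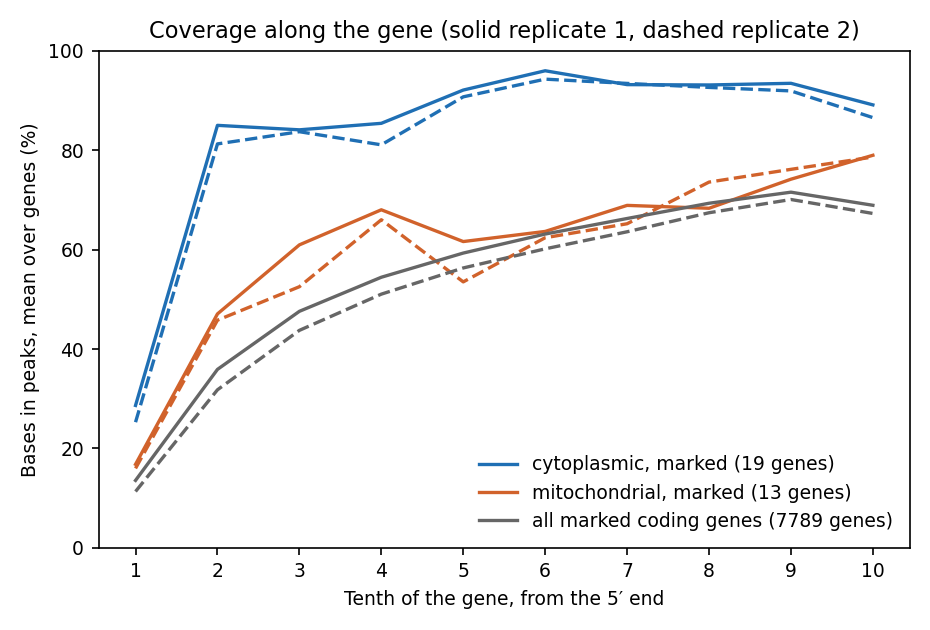
Mean share of bases in H3K36me3 peaks (y axis, %) in each of 10 equal bins of the gene from the 5′ end (x axis), for marked cytoplasmic, marked mitochondrial and all marked coding genes of at least 3 kb, solid for replicate 1 and dashed for replicate 2. The cytoplasmic line reaches 85.0% (replicate 1) by the second bin, where the mitochondrial line is at 47.1%.

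The start of the gene was nearly free of the mark, as in marked genes at large. Coverage began at a median of 1662 and 1852 bp from the annotated start in the cytoplasmic genes and at 1839 and 1784 bp in the marked mitochondrial genes. Marked coding genes of at least 3 kb began at 2163 and 2393 bp. Within 500 bp on either side of the start, no member had a covered base in either replicate except Tars2 in replicate 2, with 20.1%. This is 1 of 32 marked members, near the background of 4.38% of marked coding genes of at least 3 kb. In replicate 2 coverage inside Tars2 began 6817 bp from the annotated start, so the covered bases of this window lay before that start. The annotated span of Tars2 (20.2 kb) opens upstream of its longest coding transcript (14.9 kb), so this window is not at the start of that transcript. Over that transcript, Tars2 was covered to 91.7% and 90.1% in place of 67.5% and 66.3%, which is above all but 2 cytoplasmic genes. In each replicate 1 unbroken peak of 13.7 and 13.4 kb lay over it.

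Hars and Hars2, which charge histidine for the cytoplasm and the mitochondrion, stand head to head on chromosome 18 and their annotated spans share 198 bp. In these bases 0% were covered in either replicate. Coverage opened away from the shared start on both sides, at 1155 and 1991 bp into Hars and at 2306 and 2783 bp into Hars2. The 5′ part of Hars was covered to 37.7% and 25.5%, and that of Hars2 to 27.6% and 12.6%. The 3′ part had 89.6% in both replicates of Hars, and 95.9% and 93.5% in Hars2.

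RefSeq promoter sequences (GRCm38.p6, from 250 bases before to 50 bases after the start) were matched for 26 members, and 0 of these windows held a covered base. Of them, 23 belong to marked members, and the background for marked genes was 2.67%. Cars, Hars, Hars2, Lars, Nars, Pars2, Rars, Vars and Wars were not matched. The amino acid response element, TGATGNAA on either strand, is known as a site of ATF4 and its partners, which raise synthetase genes when amino acids run short. It was present in 5 of 12 cytoplasmic promoters (Aars, Gars, Iars, Tars and Yars) and in 0 of 14 mitochondrial promoters, against 3.97% of the 32851 promoters of the table. These 5 genes were covered to between 79.9 and 86.7%.

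The matches of 4 genes are shown with the motif, or its reverse complement, in capitals, each read on the gene's strand. Gars and Tars are shown over the 150 bases before the start, and Iars and Yars over 30 bases. The stretches are Gars at chr6:55037851-55038000 (plus), Iars at chr13:49682126-49682155 (plus), Tars at chr15:11399659-11399808 (minus) and Yars at chr4:129189895-129189924 (plus).
Gars: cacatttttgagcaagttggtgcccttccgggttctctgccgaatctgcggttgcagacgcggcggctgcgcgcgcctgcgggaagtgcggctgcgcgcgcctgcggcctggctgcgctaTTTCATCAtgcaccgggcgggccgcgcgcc
Iars: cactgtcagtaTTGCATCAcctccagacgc
Tars: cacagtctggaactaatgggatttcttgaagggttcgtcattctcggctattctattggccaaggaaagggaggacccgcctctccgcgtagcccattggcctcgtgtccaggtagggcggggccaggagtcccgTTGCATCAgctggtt
Yars: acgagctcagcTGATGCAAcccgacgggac
The motif began 30 bases before the RefSeq start in Gars and 15 before it in Tars. It began 7 bases after the start in Iars and 3 after it in Yars. A match is a description of the letters and no binding was measured.

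The other motifs were searched on both strands in the same way. The NRF1 motif was in 3 of 12 cytoplasmic and 2 of 14 mitochondrial promoters (4.60% of all), and the GABPA motif CCGGAAG in 4 and 4 (8.86%). The YY1 motif AANATGGC was in 1 cytoplasmic promoter, Farsa, and in 4 mitochondrial promoters, Aars2, Lars2, Wars2 and Yars2 (6.05%). The E-box CACGTG was in 4 cytoplasmic promoters and 1 mitochondrial promoter (7.15%). The GC box GGGCGG was in 8 and 11 (35.7%) and the TATA box TATAAA in 1 and 2 (13.6%). No matches of different motifs overlapped in these promoters. Lars2 and Wars2, at the bottom of the range, and Aars2 and Yars2, near the top of the mitochondrial genes, thus shared the YY1 letters.

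In cytoplasmic genes exons and introns were covered to about the same share, and in mitochondrial genes exons were covered more. With bases pooled over genes, 84.1% and 83.1% of the exonic bases of the cytoplasmic members lay in peaks, and 82.1% and 79.1% of the intronic bases. The ratio of exon to intron share was 1.04 ± 0.0177 (SD, n = 2). In the 12 marked mitochondrial genes with introns, peaks held 72.2% and 69.0% of exonic bases and 45.3% and 43.9% of intronic bases. This gave a ratio of 1.58 ± 0.0148, beside 1.55 ± 0.0871 for all marked coding genes. The mitochondrial ratio fell to 1.29 ± 0.0253 without Lars2, whose long introns weigh most in the pool. Where coverage is nearly complete, as in the cytoplasmic genes, the ratio cannot lie far from 1.

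Gene by gene, exons were more covered than introns in both replicates in 19 of 31 marked members with introns, against a background of 67.2%. They were 11 of 19 cytoplasmic and 8 of 12 mitochondrial genes. Pars2 had the sharpest division, with 76.7% and 66.0% of its exonic bases covered and 0% of its only intron. Its 1 peak began 1839 and 2173 bp from the start, so the intron lay wholly in the uncovered 5′ stretch. In Sars2 exons had 87.9% and 91.2% and introns 54.3% and 60.4%. Cars went the other way, with 82.8% and 78.9% of exonic and 99.1% and 98.2% of intronic bases covered. In the 3 unmarked members 8.68% and 9.91% of exonic bases were covered, against 1.02% and 0.955% of intronic bases.

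**Figure D5:**
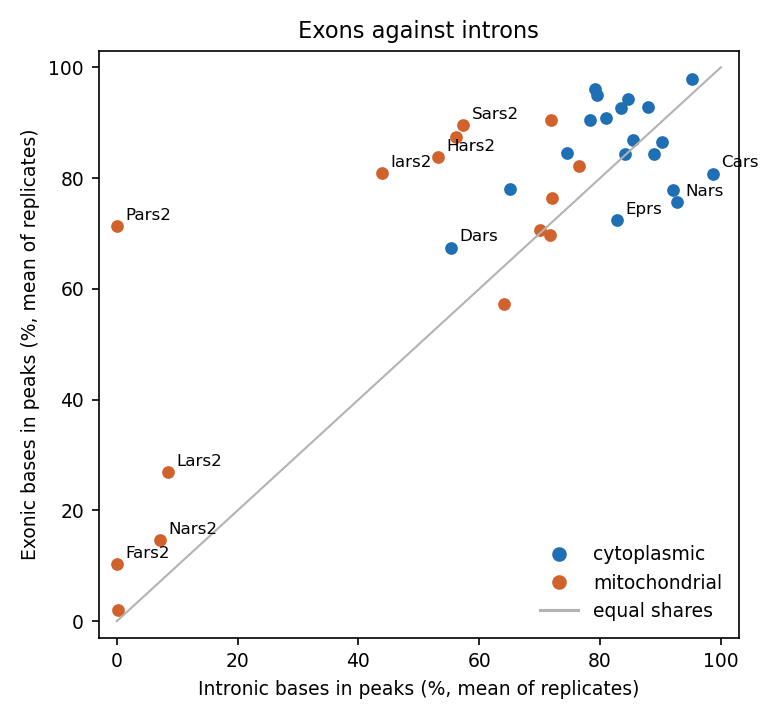
Share of exonic bases (y axis, %) against intronic bases (x axis, %) in H3K36me3 peaks for the 34 members with introns, each the mean of the replicates, with a grey line where both are equal. Cytoplasmic genes (blue) cluster around the line at the top right, and Pars2, Lars2, Nars2 and Fars2 lie above it.

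Replicate 1 gave the higher share in 20 of 32 marked members, against a background of 68.8%. The median absolute difference between replicates was 2.10 points in the marked members and 3.68 in all marked coding genes. It was 1.31 points in the cytoplasmic and 3.58 in the mitochondrial genes. The 3 largest were in Iars2 (9.74 points), Dars (9.66) and Hars (8.80), all higher in replicate 1. Sars2 had the largest gain in replicate 2, from 63.7% to 69.0%.

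Genes around the synthetases in the tRNA pathway were mostly marked, at a lower share. Of 107 pathway genes, 96 were marked, where the background was 37.2% of all coding genes. The median of the 107 was 64.3% and 61.6%, against 78.2% and 74.5% for the 35 members. All marked coding genes had a median of 57.1% and 52.9%. All 3 scaffold genes of the multi-synthetase complex were marked: Eef1e1 had 93.5% and 91.9%, Aimp2 80.9% and 80.1%, and Aimp1 62.4% and 59.4%. Mitochondria are known to make glutaminyl-tRNA by amidation and to formylate the initiator tRNA, and the 4 genes for these steps were all marked. Mtfmt had 54.1% and 52.5% and Qrsl1 53.4% and 48.6%, Gatc 60.4% and 44.4%, and Gatb 22.2% and 11.7%. Their median of 53.8% and 46.5% was below that of the mitochondrial synthetases.

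Among synthetase genes outside the list, Mars, the cytoplasmic methionine enzyme, had 91.4% and 91.6%. It stood above Mars2 at 33.0% and 31.0%. Tarsl2, a second gene for a threonine enzyme, had 0.930% and 0.792% and was not marked.

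Among the factors that deliver charged tRNA to the ribosome, 6 of 7 were marked, against the same background of 37.2% of all coding genes. Eef1g and Eef1d, subunits of the exchange factor, had 95.8% and 96.7%, and 89.1% and 88.8%. Eef1a1 had 27.1% and 26.3%, and Eef1a2, the muscle and neuron form, 0% in both. Of 23 genes for tRNA maturation and export 21 were marked (median 70.1% and 67.2%), among them Elac2 with 90.2% and 90.6%. Elac1 and Pop7 were not marked. Of 36 tRNA modification genes 33 were marked (median 62.9% and 62.2%), and Trdmt1, Elp4 and Cdkal1 were not.

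The amino acid response genes, known to be induced with several synthetases when amino acids run short, were marked in 18 of 21 cases. The background for this and the next 2 lists was 37.2% of all coding genes. Their median was 64.0% and 60.7%, beside 57.1% and 52.9% for all marked coding genes. The transporters Slc38a2 and Slc7a5 had 89.4% and 89.8%, and 89.6% and 88.6%. Cebpb and Slc7a11 had 0% in both replicates, and Nupr1 had 6.11% and 0%. All 6 selenocysteine genes were marked, from Secisbp2 with 86.3% and 87.5% to Eefsec with 25.2% and 15.2%. Their median of 49.7% and 46.4% was below that of all marked coding genes. Of 4 genes that remove wrongly attached amino acids, 3 were marked, and Dtd1 had 6.01% and 4.05%.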

How the data were processed

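H3K36me3 peaks of both replicates were used as deposited by the authors. Each replicate has, per the deposited file lists, a set of peaks supported by pseudoreplicates (random divisions of its reads) on mm10, which was used here, and an unthresholded set from another alignment run. For the aligner and peak caller, names and versions were not given in the sources used here. Each deposited peak has a fold enrichment, a ratio over background set by the authors, and a q-value that the authors wrote as −log10. Depth is unknown, and regions that differ between 129/Ola and the reference strain may be under-covered.

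Gene spans and exons, merged over transcripts into blocks, came from GENCODE M21, and sequences from GRCm38.p6. Coverage was computed with Python 3.11.15, numpy 2.4.6 and pysam 0.24.0. The procedure was tested on simulated peaks, where 100% of 200 genes among 15294 were recovered. Members, gene lists, motifs and thresholds were chosen with earlier results of these data known. Values are given for the 3 unmarked members, the 6 highest and 6 lowest, the 3 with the largest difference between replicates, the 3 widest amino acid differences, the 3 longest and 3 shortest, and others named after their values were seen. For the pathway lists, up to 2 highest and 2 lowest genes were eligible. No p-values were computed, since there is 1 group.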

Additional observations from a re-analysis of the deposited data

How the results depend on the processing

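The cytoplasmic median stayed above the mitochondrial one under every alternative run, by 20.7 to 21.5 points when 1 replicate was left out. It was 18.3 points in the unthresholded sets, 21.8 with a −log10 q of at least 5, 17.2 in the combined set of replicated peaks, 22.6 among genes overlapping no other coding gene, 33.9 with means, 23.6 amino acid by amino acid and 17.5 within the shared lengths. Leaving out 1 replicate gave 32 marked members, 19 cytoplasmic and 13 mitochondrial, each time. The 3′ minus 5′ difference in marked members was then 27.0 to 29.5 points, and the exon to intron ratio 1.14 to 1.16. That ratio was 1.13 with equal weight per gene and 1.20 within the 3′ part alone. Alternatives chosen after seeing the data gave a mitochondrial ratio of 1.29 without Lars2 and 1.37 with equal weight per gene, in place of 1.58. At thresholds of 25% and 50% of the body, 31 and 28 members were marked. No paired analysis was possible because there is 1 group. Unknown depth limits the comparison of the replicates and of genes with few peaks, such as Fars2 and Wars2.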

Other observations

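Synthetases fall into 2 structural classes with different catalytic folds, and the contrast between compartments was present within each. The 8 cytoplasmic class I genes had a median covered share of 86.4% in replicate 1 and 86.5% in replicate 2, and the 9 mitochondrial class I genes 65.5% and 61.9%. The 10 cytoplasmic class II genes had 85.0% and 84.4%, and the 7 mitochondrial class II genes 63.7% and 65.6%. Eprs holds 1 enzyme of each class and was left out.

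Coverage ran past the 3′ end of several members. Where the 5 kb downstream held no coding gene, 9 cytoplasmic genes had on average 35.8% and 31.7% of these bases in peaks, and 4 marked mitochondrial genes 28.9% and 20.2%. Marked coding genes had 19.7% and 16.9%. The values were uneven: Cars had 91.6% and 89.3% and Pars2 91.2% and 67.5%, while Sars and Ears2 had 0% in both replicates. Soft-masked repeats were more common in the bases uncovered in both replicates than in those covered in both in 15 of 19 cytoplasmic genes, the exceptions being Aars, Cars, Qars and Vars. The same held in all 15 mitochondrial genes with bases covered in both. Pooled, 40.4% of the uncovered and 21.2% of the covered bases of the cytoplasmic genes were masked. In the mitochondrial genes it was 27.0% against 19.2%, and 32.5% against 19.2% without Fars2, which holds most of the uncovered bases. The part of repeats in the coverage was not tested.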
